A study of Mus musculus with 6 samples.

Results

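Sterol and fatty acid synthesis in these tumors was followed through 8 genes: Srebf1 and Srebf2, which encode the SREBP transcription factors, the SREBP regulator Insig1, and 5 SREBP target enzymes, Hmgcs1, Sqle, Acaca, Fasn and Scd1. They were taken from the table by gene symbol, with no threshold on their values, and are 8 of the 55487 genes in the count table and 8 of the 15114 genes with enough reads to be tested. RNA was sequenced from 6 subcutaneous tumors grown from CT26.WT, a colon carcinoma line of wild-type genotype, in immunocompetent BALB/c mice. The control group held 3 tumors and the IFN-γ stimulation group the other 3. The mice were male, 4 weeks old when bought, and were injected through the tail vein every 48 h, with IFN-γ in the stimulation group and with PBS in the control group. All tumors came from a single cell line, and each library holds RNA from tumor cells and host cells together, so fewer cells of a type and less RNA per cell cannot be told apart in any value below.

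SREBPs are made as membrane proteins of the endoplasmic reticulum. When sterols are low, the escort protein SCAP carries them to the Golgi, where the site-1 and site-2 proteases free the part that enters the nucleus, and when sterols are high, INSIG proteins hold SCAP back. SREBP-2 mainly drives genes of cholesterol synthesis and uptake, whereas SREBP-1c, a product of Srebf1, mainly drives fatty acid synthesis. The gene Srebf1 is also a target of LXR, the nuclear receptor for oxysterols, and 25-hydroxycholesterol, made by the interferon-inducible enzyme CH25H, is known to hold SREBP processing down.

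Libraries held 15759300 to 17559680 counts, and 3 counts in a tumor, the limit that a count of 0 allows, correspond to 0.169 to 0.188 CPM (the count as a share of the TMM-scaled library total, on the usual CPM scale), covering counting error only. IFN-γ tumor 3 stood apart from IFN-γ tumors 1 and 2. The summed level of 12 IFN-γ response genes was 3180, 4040 and 3830 CPM in control tumors 1 to 3 and 5810, 6280 and 4150 CPM in IFN-γ tumors 1 to 3. In all 6 tumors 0 of these 12 genes passed the threshold by edgeR or limma-voom and 1 by DESeq2 (1.24% of all genes). At an unadjusted p under 0.05 by edgeR 7 were higher, against 10.2% of all genes in either direction. Without IFN-γ tumor 3 edgeR called 9 of them higher, against 3.18% of all genes in either direction. The genes of the circadian clock output did not share this split, with 371 to 453 CPM in sum in the control tumors and 932 to 984 CPM in the 3 IFN-γ tumors. By edgeR 6 were higher and 1 lower of 11 tested, against 0.112% of all genes in either direction. Of 9 epithelial markers only 3 had enough reads to be tested, and the summed level of the 9 was 9.64 to 23.3 CPM. Cdx2, a defining gene of intestinal epithelium, had 0 counts in every tumor. These markers thus gave little support to the labelled colon carcinoma identity. Without their levels in cultured CT26.WT cells, they cannot decide on it either way.

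None of the 8 genes passed the test between the groups. By edgeR's quasi-likelihood test on all 6 tumors with Benjamini-Hochberg adjustment, 0 of 8 had an adjusted p under 0.05, against 0.112% of all genes tested (12 higher and 5 lower). At an unadjusted p under 0.05 the count was also 0 of 8, against 10.2% of all genes. DESeq2 and limma-voom each called 0 of 8 as well. The 95% intervals of the fold changes of all 8 genes together ran from 0.765-fold to 1.41-fold. A 2-fold change in either direction thus lay outside the interval of each gene, while shifts inside these intervals were not excluded with 3 tumors a group. The intervals are unadjusted and are not the limit of detection, since a larger shift can also miss the adjusted threshold. The median log2 fold change was -0.041 for the 8 genes and 0.0015 for all genes tested.

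**Figure D1:**
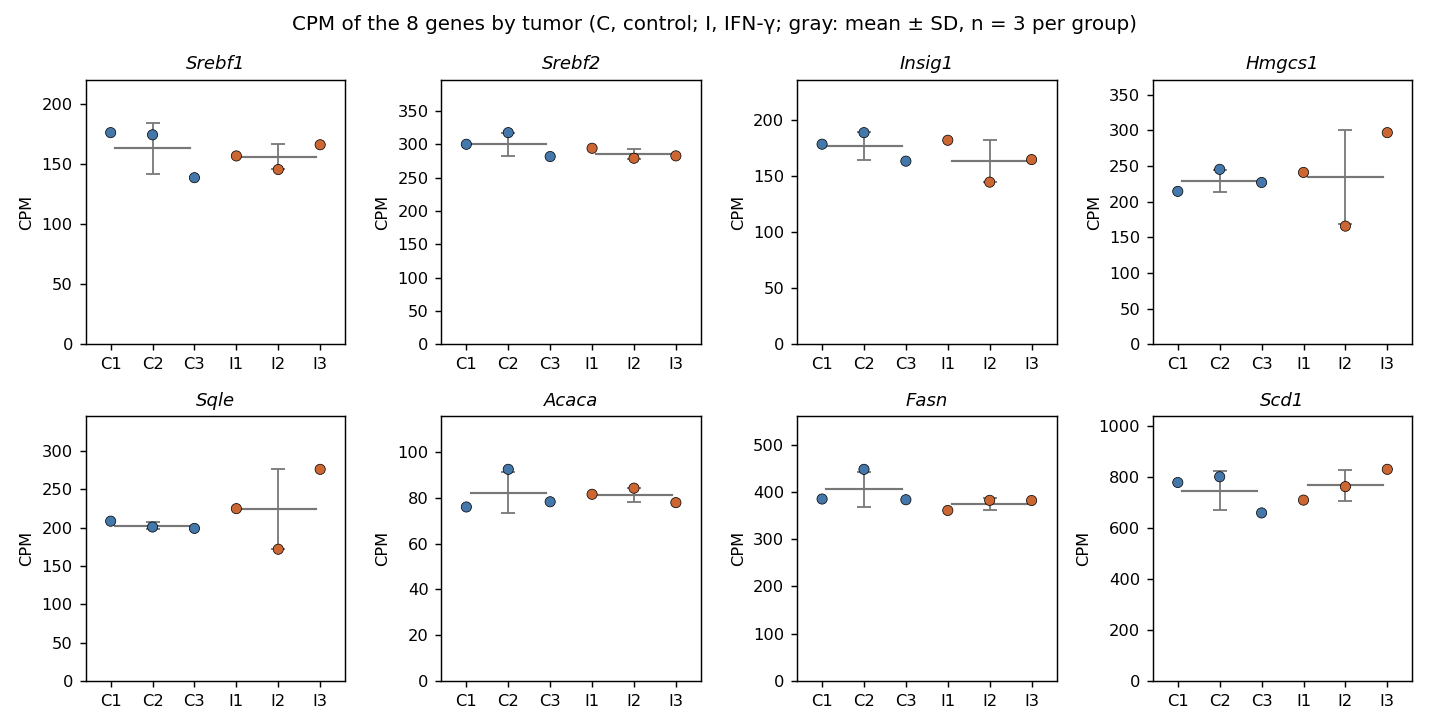
CPM of each of the 8 genes (linear axis from 0) in control tumors 1 to 3 (C1 to C3, blue) and IFN-γ tumors 1 to 3 (I1 to I3, orange), with gray lines for the group mean ± SD (n = 3). The groups overlap in every panel except that of Fasn, and the IFN-γ tumors of Hmgcs1 and Sqle are spread from 165.6 to 296.7 CPM and from 171.9 to 276.2 CPM.

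The transcription factors were at even levels. Srebf1 (chr11:60199089-60222581, minus strand, GRCm38) had 176, 174 and 139 CPM in control tumors 1 to 3 and 157, 145 and 166 CPM in IFN-γ tumors 1 to 3. The lowest value was that of control tumor 3, and the groups overlapped, with means of 163 ± 21.2 and 156 ± 10.3 CPM (SD, n = 3 each). Its log2 fold change, IFN-γ over control, was -0.06 (SE 0.11, 95% interval -0.31 to 0.18, edgeR adjusted p = 0.888). Rai1 overlaps Srebf1 on the opposite strand and had 560 to 862 counts a tumor, against 2380 to 3092 for Srebf1. Whether the counting used strand is not given in the sources used here, so reads of these overlapping genes may be mixed.

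Srebf2 (chr15:82147181-82205379, plus strand) had 300.2, 318 and 282 CPM in the control tumors and 294, 279 and 283 CPM in the IFN-γ tumors. It varied least of the 8 genes, with an SD of log2(CPM + 0.5) over the 6 tumors of 0.0713. The log2 fold change was -0.07 (SE 0.075, 95% interval -0.24 to 0.10, edgeR adjusted p = 0.809). The ratio of Srebf2 to Srebf1 CPM lay between 1.7 and 2.03 in the control tumors and between 1.7 and 1.92 in the IFN-γ tumors.

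Insig1 (chr5:28071363-28078662, plus strand), whose protein retains the SCAP-SREBP complex and is itself induced by SREBP, had 178, 188 and 163 CPM in the control tumors. The values in IFN-γ tumors 1 to 3 were 182, 144 and 164 CPM. IFN-γ tumor 2 was the lowest of the 6 and IFN-γ tumor 1 lay among the controls. The log2 fold change was -0.11 (SE 0.10, 95% interval -0.34 to 0.12, edgeR adjusted p = 0.774). Its homolog Insig2 had 58.1 to 62.8 CPM in the control tumors and 56.1 to 62.0 CPM in the IFN-γ tumors, with a log2 fold change of 0.00068 (95% interval -0.17 to 0.18).

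Of 13 genes of SREBP processing and turnover, all 13 were tested and 0 passed the threshold in either direction by edgeR, DESeq2 or limma-voom. The only one with an unadjusted p under 0.05 was Erlin2, an ER protein that takes part in protein degradation there, with 91.1, 92.6 and 96.6 CPM in the control tumors and 86.3, 84.2 and 81.1 CPM in the IFN-γ tumors. Its groups did not overlap, as was so for 15.1% of all genes tested, and its adjusted p by edgeR was 0.475. An unadjusted p under 0.05 by edgeR was found for 10.2% of all genes tested. Scap had 75.7 to 82.0 CPM in the control tumors and 73.4 to 76.0 CPM in the IFN-γ tumors. The log2 fold changes of Mbtps2, the site-2 protease, and Rnf139, an ER ubiquitin ligase, were -0.16 (SE 0.11) and 0.14 (SE 0.085). The median of the list was -0.063.

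The sterol synthesis enzymes differed in another way, since they varied among the IFN-γ tumors more than between the groups. Hmgcs1 (chr13:119690379-119708260, plus strand), which makes HMG-CoA for the mevalonate pathway, had 214, 245 and 227 CPM in control tumors 1 to 3. It had 241, 166 and 297 CPM in IFN-γ tumors 1 to 3. Thus IFN-γ tumor 2 was the lowest and IFN-γ tumor 3 the highest of all 6, the highest value was 1.79 times the lowest in the IFN-γ group (1.45 without IFN-γ tumor 3) and 1.14 times in the control group, and the means were 229 ± 15.6 and 234 ± 65.8 CPM (SD, n = 3 each). The log2 fold change was 0.035 (SE 0.18, 95% interval -0.39 to 0.46, edgeR adjusted p = 0.974). It was -0.18 without IFN-γ tumor 3 and -0.0093 without control tumor 1, with no call in either fit.

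Sqle (chr15:59315077-59331192, plus strand), squalene epoxidase, had 209, 201 and 199 CPM in the control tumors, which were nearly equal. The IFN-γ tumors had 225, 172 and 276 CPM. Here again IFN-γ tumor 2 was lowest and IFN-γ tumor 3 highest, with a ratio of highest to lowest of 1.61 (1.31 without IFN-γ tumor 3), against 1.05 among the controls. The means were 203 ± 4.99 and 224 ± 52.2 CPM (SD, n = 3 each), and the log2 fold change was 0.15 (SE 0.15, 95% interval -0.20 to 0.49, edgeR adjusted p = 0.807). Without IFN-γ tumor 3 it was -0.04.

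This order of tumors was shared by most of the 21 genes listed for sterol synthesis, all of which were tested. In 15 of 21 the lowest value was that of IFN-γ tumor 2 (71.4%, against 17.2% of all genes tested), and in 12 of 21 the highest was that of IFN-γ tumor 3 (57.1%, against 22.0%). IFN-γ tumor 3 was above IFN-γ tumor 2 in 19 of 21 (90.5%, against 50.9%), with a median difference of 0.43 on the log2 scale, against 0.0063 for all genes. The median SD of log2(CPM + 0.5) was 0.0974 in the control group and 0.255 in the IFN-γ group, while over all genes it was 0.136 and 0.151. Without IFN-γ tumor 3 the SD of the IFN-γ group, then from 2 tumors, had a median of 0.184 for the list and 0.0887 for all genes. A wider spread in the IFN-γ group was not particular to sterol synthesis, since the median SD was 0.102 and 0.208 for the 9 tested genes of sterol uptake and transport, 0.102 and 0.278 for macrophage markers and 0.338 and 0.824 for T cell markers. Without IFN-γ tumor 3 these IFN-γ values were 0.151, 0.0948 and 0.278. Each group has 3 tumors, the genes share the same libraries, and Hmgcs1 and Sqle are among the 21, so these shares describe the 6 tumors and were not tested. With IFN-γ tumor 3 left out of the ranking, IFN-γ tumor 2 was lowest in 16 of 21 (76.2%, against 21.2% of all genes), and with IFN-γ tumor 2 left out, IFN-γ tumor 3 was highest in 12 of 21 (57.1%, against 24.7%). These rankings and the SDs without IFN-γ tumor 3 were added after the data were seen. Between the groups, 0 of 21 passed the threshold by edgeR, DESeq2 or limma-voom, and the median log2 fold change was 0.022. At an unadjusted p under 0.05 by edgeR 2 were lower, against 10.2% of all genes in either direction.

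**Figure D2:**
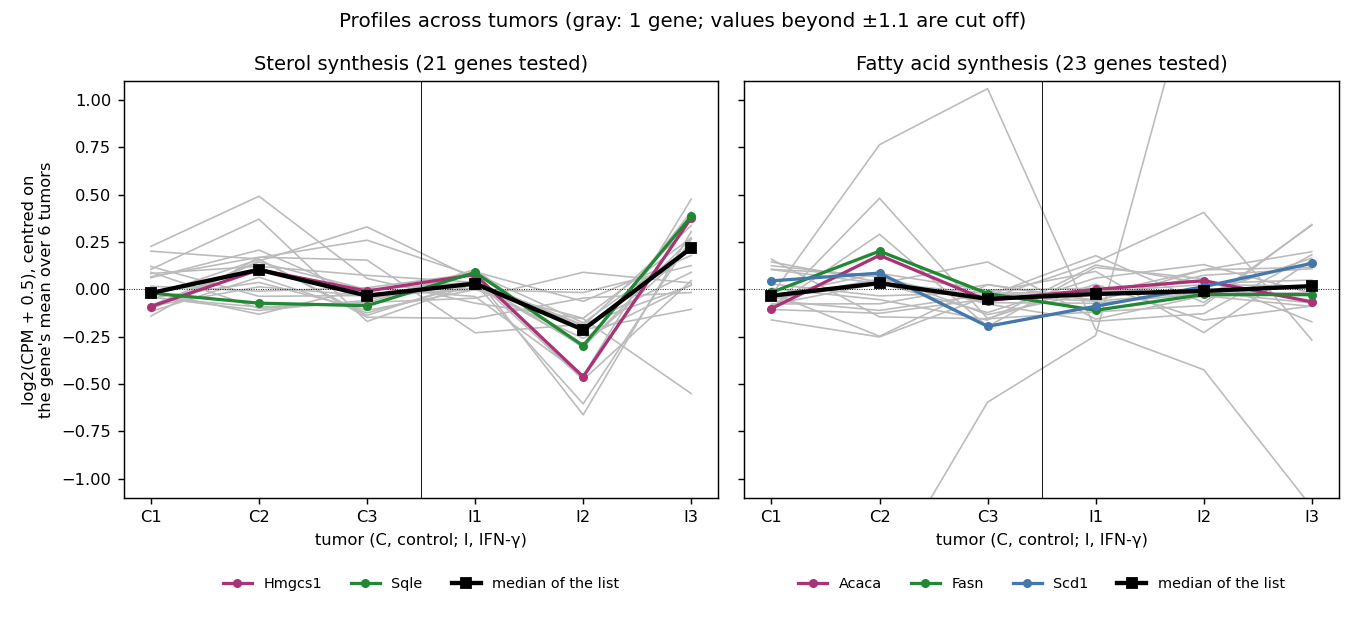
log2(CPM + 0.5) in each tumor (C1 to C3, control; I1 to I3, IFN-γ), centred on each gene's mean over the 6 tumors, for the genes tested of the sterol synthesis list (left) and the fatty acid synthesis list (right), with gray lines for single genes, colored lines for the named genes and a black line for the median of the list. The sterol median falls to -0.21 in I2 and reaches 0.22 in I3, whereas the fatty acid median stays between -0.05 and 0.033. Lines are drawn only within ±1.1, which part of the lines of Thrsp and Mlxipl leave.

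A pair of other enzymes of the list is given as an example of this profile, chosen for it and so no further evidence of it. Cyp51, lanosterol demethylase, named for its likeness to Sqle, had 251, 242 and 246 CPM in the control tumors and 278, 208 and 343 CPM in the IFN-γ tumors. Msmo1, the sterol C4-methyl oxidase, which was named after its values were seen, had 193, 189.8 and 192 CPM in the control tumors and 186, 139 and 266 CPM in the IFN-γ tumors. Of 15113 other genes, the profile of Cyp51 was nearest to that of Sqle, with a root mean square difference of centred log2(CPM + 0.5) of 0.0188 over 6 tumors, followed by Gadd45g (0.0259) and Itga2b (0.0538). The genes nearest to Hmgcs1 were Klhl42 (0.0438), Gm42715 (0.0662) and Ankrd66 (0.0816), with Msmo1 at rank 7.

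Sterol synthesis genes with a small p did not share that order fully. Pmvk had 26.6, 28.6 and 28.3 CPM in the control tumors and 21.6, 22.3 and 25.8 CPM in the IFN-γ tumors, so that IFN-γ tumor 1 was the lowest of the 6. Pmvk and Mvk, which phosphorylate mevalonate, had log2 fold changes of -0.26 (SE 0.10, adjusted p = 0.432) and -0.18 (SE 0.085, adjusted p = 0.509) in edgeR. Neither overlapped between groups, as was so for 3 of the 21 genes of the list and 15.1% of all genes tested. For Ggps1, geranylgeranyl diphosphate synthase, the log2 fold change was 0.14 (SE 0.090, edgeR adjusted p = 0.645).

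Markers of other cells also differed between IFN-γ tumors 2 and 3. The summed level of 7 T cell markers was 56.0 to 84.5 CPM in the control tumors and 106, 126 and 43.0 CPM in IFN-γ tumors 1 to 3, and that of 8 macrophage markers was 1800 to 1950 CPM in the control tumors and 2450, 2650 and 1880 CPM in the IFN-γ tumors. The sum of 7 fibroblast markers was 2880 to 4000 CPM in the control tumors and 3790, 4050 and 2860 CPM in the IFN-γ tumors. These 3 lists were highest in IFN-γ tumor 2, and IFN-γ tumor 3 was below all controls or, for macrophages, within their range. The sterol synthesis list ran the other way, with sums of 1740, 1800 and 1720 CPM in the control tumors and 1820, 1460 and 2170 CPM in IFN-γ tumors 1 to 3. For 7 skeletal muscle markers the sums were 138, 218 and 880.0 CPM in the control tumors and 339, 467 and 154 CPM in the IFN-γ tumors. Epidermal markers, 9 of which are in the table, summed to 6.93 to 14.4 CPM in the control tumors and to 9.17, 9.22 and 73.0 CPM in the IFN-γ tumors, and 8 sebaceous gland markers to at most 3.03 CPM in any tumor. The 10 proliferation genes ranged only from 2440 to 2730 CPM, with IFN-γ tumor 3 lowest. The part of cell composition in the spread of the sterol synthesis genes was not tested.

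Promoter sequence is shown for Hmgcs1, Srebf2, Msmo1 and Insig1, whose promoters all held a motif named below. Each stretch was cut around that motif, so its presence there was fixed by the choice. Hmgcs1 varied most of the 8 genes, Srebf2 and Insig1 varied less, and Msmo1, outside the 8, had a profile like that of Hmgcs1. RefSeq promoters of GRCm38.p6 were matched for 6 of the 8 genes (not for Sqle and Scd1), and the 250 bases before each start were searched on both strands. A gene was counted if any of its promoters held the motif, whereas the shares of all mouse promoters count each promoter singly. Srebf1 and Dhcr7 have 3 promoters each and Pmvk has 2, so the shares of genes can run higher. TCACNCCA, the core of the sterol regulatory element, was present in 2 of 6 (Hmgcs1 and Srebf2), against 3.67% of 32851 mouse promoters. The E-box CACGTG was present in 1 of 6 (Insig1), against 6.02%. CCAAT, to which the SREBP cofactor NF-Y binds, was present in 5 of 6, against 33.8%, and the 16 sterol synthesis genes that were matched held the sterol regulatory element core in 2 (12.5%, Hmgcs1 and Msmo1), the E-box in 3 (18.8%) and CCAAT in 15 (93.8%). Capitals mark these motifs on either strand, which do not overlap each other in the stretches below, and a match of letters is not evidence of binding. The stretches are Hmgcs1 chr13:119690174-119690266 (plus strand), Srebf2 chr15:82147067-82147159 (plus strand), Msmo1 chr8:64733703-64733795 (minus strand) and Insig1 chr5:28071271-28071361 (plus strand), each written 5′ to 3′ on the strand of its gene.
Hmgcs1: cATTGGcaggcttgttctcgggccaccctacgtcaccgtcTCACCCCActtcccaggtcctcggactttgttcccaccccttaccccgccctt
Srebf2: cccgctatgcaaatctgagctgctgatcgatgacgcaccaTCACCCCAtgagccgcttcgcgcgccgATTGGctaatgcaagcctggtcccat
Msmo1: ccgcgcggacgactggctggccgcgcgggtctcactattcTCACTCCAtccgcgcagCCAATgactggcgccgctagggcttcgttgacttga
Insig1: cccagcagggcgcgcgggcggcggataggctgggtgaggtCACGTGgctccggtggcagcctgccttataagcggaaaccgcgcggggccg
The stretches of Hmgcs1, Srebf2 and Msmo1 were cut around TCACNCCA and that of Insig1 around CACGTG, so these matches are no finding. Within this window Hmgcs1, Srebf2 and Msmo1 also hold a CCAAT match. The SD of log2(CPM + 0.5) over the 6 tumors was 0.276 for Hmgcs1 and 0.0713 for Srebf2. Whether these motifs bear on the spread of a gene was not tested.

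Uptake genes followed the sterol enzymes only in part. IFN-γ tumor 2 was lowest in 4 of the 9 tested (44.4%, against 17.2% of all genes). IFN-γ tumor 3 was highest in 2 of 9 (22.2%, against 22.0%) and above IFN-γ tumor 2 in 4 of 9 (44.4%, against 50.9%). Stard4, a cholesterol transfer protein, had 105, 123 and 112 CPM in the control tumors and 125, 100.5 and 119.5 CPM in the IFN-γ tumors, with IFN-γ tumor 2 lowest (log2 fold change 0.023, SE 0.10, edgeR adjusted p = 0.966). Npc2, a lysosomal cholesterol carrier, ran the other way, with 433, 399 and 466 CPM in the control tumors and 494, 576 and 425 CPM in the IFN-γ tumors. Sterol uptake and transport was covered by 10 genes, of which 9 were tested and 0 passed the threshold by edgeR, DESeq2 or limma-voom. None of them had an unadjusted p under 0.05, and the median log2 fold change was 0.023. Scarb1, the HDL receptor, did not overlap between groups (77.5 to 78.5 CPM in the control tumors, 83.7 to 86.3 CPM in the IFN-γ tumors), and neither did Lrp8, a lipoprotein receptor (40.7 to 44.8 and 35.2 to 39.8 CPM). The adjusted p by edgeR was 0.532 for Scarb1, 0.496 for Lrp8 and 0.666 for Npc1. Groups did not overlap for 15.1% of all genes tested.

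The fatty acid enzymes Acaca, Fasn and Scd1 varied less than Hmgcs1 and Sqle in the IFN-γ group, with a highest tumor of at most 1.22 times the lowest in either group. Acaca (chr11:84129672-84401651, plus strand), which makes malonyl-CoA, had 76.0, 92.4 and 78.2 CPM in the control tumors and 81.5, 84.2 and 77.9 CPM in the IFN-γ tumors. The IFN-γ tumors lay within the range of the controls, and the log2 fold change was -0.018 (SE 0.090, 95% interval -0.22 to 0.19, edgeR adjusted p = 0.971). Without control tumor 2, the highest, it was 0.075, and without IFN-γ tumor 3 it was 0.0022.

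Fasn (chr11:120805846-120824547, minus strand), fatty acid synthase, had 385, 448 and 383 CPM in the control tumors and 361, 382 and 382 CPM in the IFN-γ tumors. It was the only one of the 8 genes whose groups did not overlap, all IFN-γ values lying lower, but the gap between 382.0 CPM in IFN-γ tumor 2 and 383.3 CPM in control tumor 3 was small. No overlap was found for 15.1% of all genes tested. The means were 405 ± 36.7 and 375 ± 12.3 CPM (SD, n = 3 each), and the log2 fold change was -0.11 (SE 0.085, 95% interval -0.31 to 0.08, edgeR adjusted p = 0.717).

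Scd1 (chr19:44394455-44407879, minus strand), the stearoyl-CoA desaturase, had 779.8, 802 and 660.3 CPM in the control tumors and 711, 763.5 and 832 CPM in the IFN-γ tumors. The lowest value was that of control tumor 3 and the highest that of IFN-γ tumor 3. The log2 fold change was 0.04 (SE 0.10, 95% interval -0.19 to 0.27, edgeR adjusted p = 0.93), and it was -0.03 without IFN-γ tumor 3 and -0.05 without control tumor 3. Scd2, its close paralog, had 994 to 1038 CPM in the control tumors and 1087, 869 and 1132 CPM in the IFN-γ tumors (log2 fold change 0.023, 95% interval -0.22 to 0.26). The Scd genes are near copies of each other, so reads may have been split between them in the counting. Per kilobase of annotated exon, Scd2 stood at 185 CPM in the control group and 188 CPM in the IFN-γ group, against 153 and 157 CPM for Scd1.

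Levels of the 8 genes were compared per kilobase of annotated exon, since levels of different genes can be compared only per length. On this scale Scd1 stood highest of the 8, at 153 CPM in the control group and 157 CPM in the IFN-γ group, and its lowest tumor (135 CPM per kb) was above the highest tumor of any of the others. Acaca was lowest, at 4.81 and 4.75 CPM per kb, and its highest tumor (5.41) was below the lowest of the others. Insig1 (57.1 and 52.8), Hmgcs1 (49.8 and 51.0), Srebf2 (41.7 and 39.7), Fasn (37.0 and 34.2), Sqle (36.6 and 40.4) and Srebf1 (28.9 and 27.7) lay between, in CPM per kb for control and IFN-γ. In that order each gene's range over the 6 tumors overlapped that of its neighbor, except for the steps from Scd1 to Insig1 and from Srebf1 to Acaca. The ranges of Sqle and Srebf1 met only between 31.0 and 31.2 CPM per kb. Since exons of all transcripts were counted in the length, the scale is approximate, most of all for Acaca with 17074 annotated exon bases.

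Among the 24 genes of fatty acid synthesis, 23 were tested and 0 passed the threshold by edgeR or limma-voom. At an unadjusted p under 0.05 by edgeR 2 were higher and 2 lower, against 10.2% of all genes in either direction. IFN-γ tumor 3 was above IFN-γ tumor 2 in 12 of 23 (52.2%, against 50.9% of all genes), with a median difference of 0.014, and the median SD of log2(CPM + 0.5) was 0.104 in the control group and 0.0953 in the IFN-γ group. IFN-γ tumor 2 was lowest in 3 of 23 and IFN-γ tumor 3 highest in 9 of 23 (39.1%, against 22.0% of all genes). The wider spread among the IFN-γ tumors seen in the sterol synthesis list was thus not seen here. The median log2 fold change was 0.023. Elovl6, an elongase, had 81.4 to 88.1 CPM in the control tumors and 71.4 to 77.8 CPM in the IFN-γ tumors (log2 fold change -0.19, SE 0.070, edgeR adjusted p = 0.409), and the acyl-CoA ligase Acsl3 had 39.97 to 46.5 and 45.4 to 60.4 CPM (0.31, SE 0.12, adjusted p = 0.414).

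**Figure D3:**
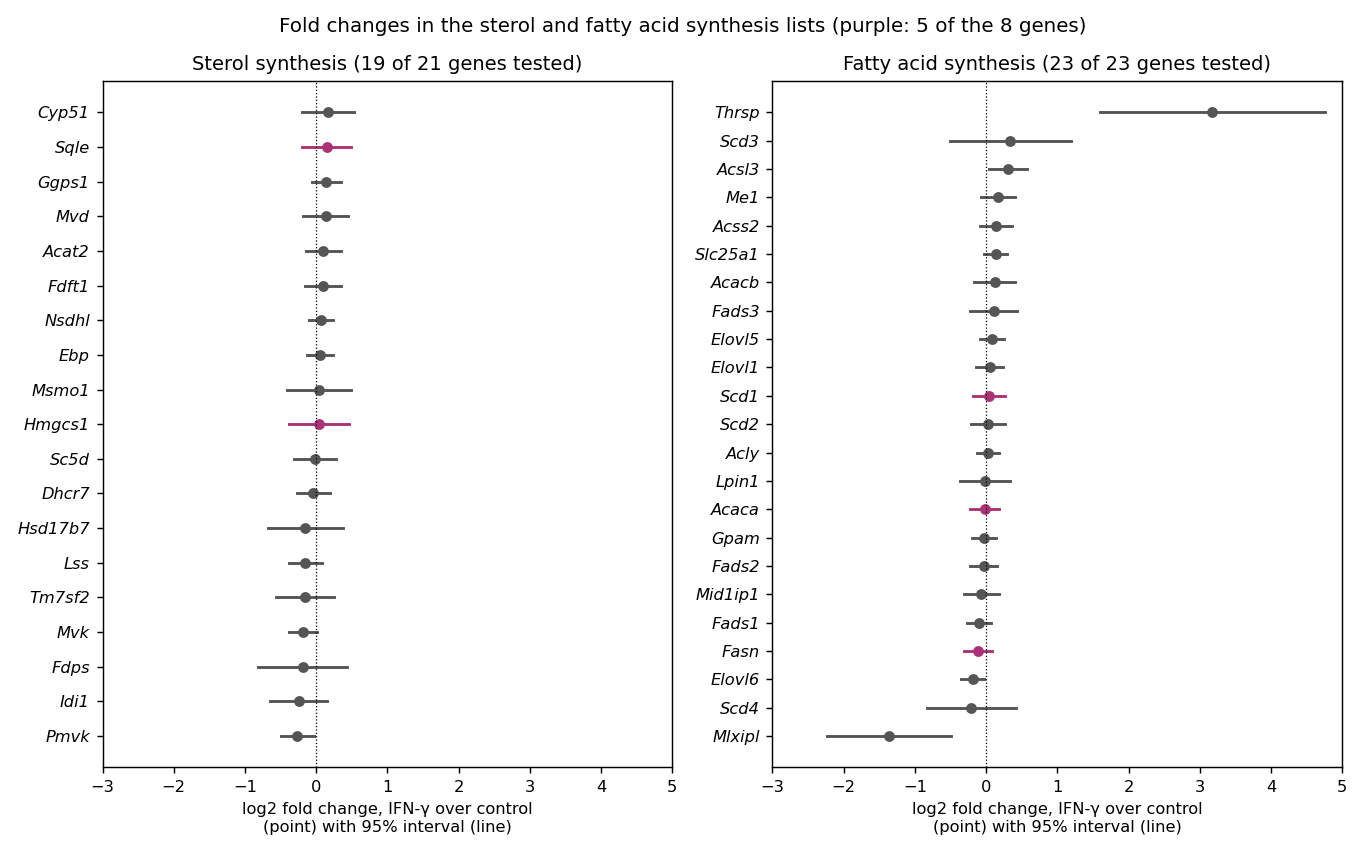
log2 fold change, IFN-γ over control, with its 95% interval (edgeR, 3 tumors a group) for the tested genes of the sterol synthesis list (left) and the fatty acid synthesis list (right), sorted by value, with Sqle, Hmgcs1, Scd1, Acaca and Fasn in purple. The left panel shows 19 of the 21 genes tested. The 5 purple genes lie between -0.11 and 0.15, and Thrsp (3.17) and Mlxipl (-1.37) lie farthest from 0.

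A pair of low genes in the fatty acid list had larger fold changes, and their calls depended on the tool. Thrsp, a lipogenic protein abundant in fat and liver, had 0.5, 0.282 and 1.03 CPM in the control tumors and 1.45, 7.76 and 7.36 CPM in the IFN-γ tumors. Every IFN-γ tumor was above every control tumor, and the log2 fold change was 3.17 (SE 0.69, edgeR adjusted p = 0.222), with an adjusted p of 0.000149 by DESeq2, 0.00162 by edgeR without the filter on low counts and 0.395 by limma-voom. Mlxipl, which encodes the glucose-responsive factor ChREBP, had 3.69, 6.77 and 8.40 CPM in the control tumors and 3.19, 2.69 and 1.42 CPM in the IFN-γ tumors. All 3 IFN-γ values were below the controls, and the log2 fold change was -1.37 (SE 0.38, edgeR adjusted p = 0.304), with an adjusted p of 0.0428 by DESeq2, 0.0411 by edgeR without the filter and 0.36 by limma-voom. Groups without overlap, as for Thrsp and Mlxipl, were found for 15.1% of all genes tested. The summed level of 8 adipocyte markers, of which Fabp4 and Cfd were the most abundant, was 113, 112 and 152 CPM in the control tumors and 158, 213 and 184 CPM in the IFN-γ tumors. Fabp4 made up most of this sum, with 91.0, 97.0 and 134 CPM in the control tumors and 118, 141 and 120 CPM in the IFN-γ tumors. Its groups overlapped (log2 fold change 0.23), whereas 7 of the 8 markers were higher without overlap, against 15.1% of all genes in either direction. By edgeR or limma-voom 0 of these 8 markers passed the threshold. By DESeq2 7 were higher, against 1.24% of all genes called in either direction. At an unadjusted p under 0.05 by edgeR 7 were also higher, against 10.2% of all genes in either direction. Without IFN-γ tumor 3 edgeR called 4 of them higher, against 3.18% of all genes in either direction. Their median log2 fold change was 2.17, and their part in the values of Thrsp was not tested.

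The calls for oxysterol and LXR genes turned on IFN-γ tumor 3. Ch25h had 19.6, 21.8 and 30.1 CPM in the control tumors and 42.6, 42.5 and 22.3 CPM in IFN-γ tumors 1 to 3. The first and second IFN-γ tumors were above all controls and the third lay among them, and the log2 fold change was 0.59 (SE 0.26, edgeR adjusted p = 0.491). Without IFN-γ tumor 3 it was 0.83, with an edgeR adjusted p of 0.0358. Cyp27a1, sterol 27-hydroxylase, had 8.44, 10.2 and 7.31 CPM in the control tumors and 19.0, 15.9 and 9.40 CPM in the IFN-γ tumors (log2 fold change 0.77, SE 0.26, edgeR adjusted p = 0.376; 1.004 and 0.0246 without IFN-γ tumor 3). Cyp7b1, an oxysterol 7-alpha-hydroxylase, had 1.47 to 2.0 CPM in the control tumors and 3.54, 2.93 and 1.67 CPM in the IFN-γ tumors (log2 fold change 0.64, adjusted p = 0.554 by edgeR; 0.89 and 0.159 without IFN-γ tumor 3), and Hsd3b7, which acts after it, had 1.37 to 3.06 and 1.28 to 1.97 CPM. Of 6 oxysterol enzymes 4 were tested, and the median log2 fold change was 0.62. In all 6 tumors 0 passed the threshold by edgeR, DESeq2 or limma-voom. By edgeR 1 had an unadjusted p under 0.05 (10.2% of all genes), and 2 passed the threshold without IFN-γ tumor 3 (3.18% of all genes).

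**Figure D4:**
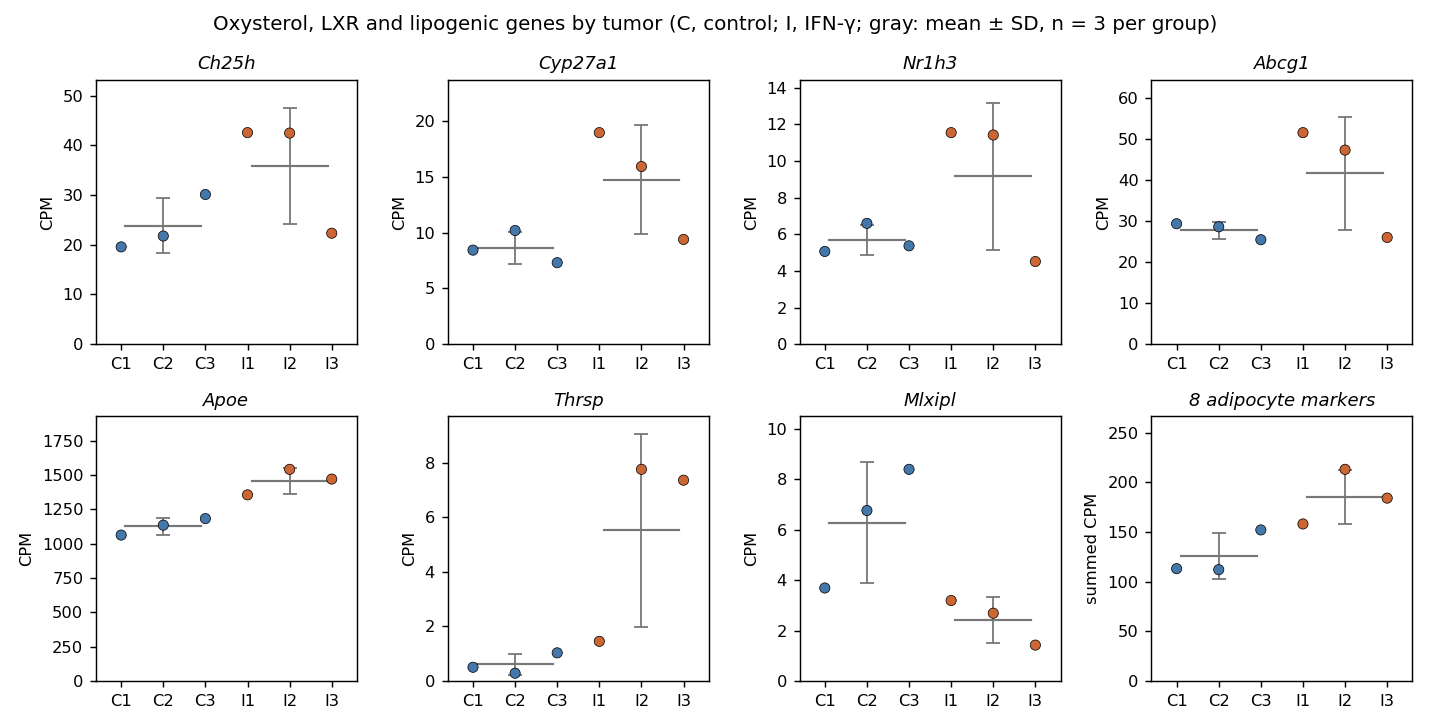
CPM (linear axes from 0) of oxysterol, LXR and lipogenic genes, and the summed CPM of 8 adipocyte markers, in control tumors 1 to 3 (C1 to C3, blue) and IFN-γ tumors 1 to 3 (I1 to I3, orange), with gray lines for the group mean ± SD (n = 3). Ch25h, Cyp27a1, Nr1h3 and Abcg1 are above all controls in I1 and I2 and within or near the control range in I3, while Apoe, Thrsp and the marker sum are above all controls and Mlxipl below them in all 3 IFN-γ tumors.

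The same order was seen in the LXR genes Nr1h3, which encodes LXR-alpha, and Abcg1, a sterol efflux transporter and LXR target. Nr1h3 had 5.06, 6.596 and 5.37 CPM in the control tumors and 11.6, 11.4 and 4.51 CPM in the IFN-γ tumors, and Abcg1 had 29.4, 28.6 and 25.5 CPM and 51.6, 47.3 and 26.0 CPM. Their log2 fold changes were 0.69 (edgeR adjusted p = 0.534) and 0.58 (0.428) in all 6 tumors, and 1.01 (0.0247) and 0.82 (0.00964) without IFN-γ tumor 3. Both genes, like Ch25h and Cyp27a1, are known to be expressed by macrophages, whose 8 markers were also lowest in IFN-γ tumor 3 among the IFN-γ tumors in sum, and the part of macrophage content was not tested. Abca1, another LXR target, had 108 to 153.5 CPM in the control tumors and 122 to 135 CPM in the IFN-γ tumors. Mylip, also of the LXR list, had 34.2 to 36.8 CPM in the control tumors and 37.5 to 41.2 CPM in the IFN-γ tumors. Its log2 fold change was 0.12 (edgeR adjusted p = 0.678), and its groups did not overlap, as for 15.1% of all genes tested. The log2 fold change of Srebf1, itself an LXR target, was -0.06 with all 6 tumors and -0.12 without IFN-γ tumor 3, with no call in either fit.

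Apoe, the apolipoprotein of sterol efflux, lay above every control in all 3 IFN-γ tumors, including the third. It had 1063, 1135 and 1183 CPM in the control tumors and 1356, 1542 and 1471 CPM in the IFN-γ tumors, and the log2 fold change was 0.37 (SE 0.082, edgeR adjusted p = 0.222, DESeq2 adjusted p = 0.00507, limma-voom adjusted p = 0.236). The groups were apart, as was so for 15.1% of all genes tested, and the call was made by DESeq2 alone of these tools. Lpcat3, a phospholipid remodelling enzyme and LXR target, had 52.3 to 54.5 CPM in the control tumors and 44.4 to 50.2 CPM in the IFN-γ tumors (adjusted p = 0.533 by edgeR). Of the 11 genes of the LXR list 9 were tested, and the median log2 fold change was 0.10. By edgeR or limma-voom 0 passed the threshold, and by DESeq2 1 (Apoe), against 1.24% of all genes. At an unadjusted p under 0.05 by edgeR 2 were higher, against 10.2% of all genes in either direction.

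Over the 6 pathway lists together, 85 genes were listed and 79 tested. By edgeR 0 of the 79 passed the threshold, by limma-voom 0, and by DESeq2 3 (3.8%, against 1.24% of all genes), which were Thrsp and Apoe (higher) and Mlxipl (lower). Without IFN-γ tumor 3, edgeR called 4 of the 79 (5.06%, against 3.18% of all genes), all higher, which were Abcg1, Ch25h, Cyp27a1 and Nr1h3, and none of them is among the 8 genes or the sterol synthesis list. Without IFN-γ tumor 2, 1 of the 8 genes, Sqle, had an unadjusted p under 0.05 in edgeR, as did 6.25% of all genes, and its log2 fold change was then 0.30 (adjusted p = 0.757).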

How the data were processed

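RNA from 6 subcutaneous CT26.WT tumors (3 control, 3 IFN-γ) was sequenced, and the authors deposited raw read counts per gene, not normalized. HISAT2 and mm10 are named in the submitters' processing notes, while the counter, its annotation and strandedness are not given in the sources used here. All 6 columns were used, with 15759300 to 17559680 counts a tumor, and 28619 genes had 0 counts throughout. Counts were scaled by TMM and tested with edgeR 4.0.16 in R 4.3.3 (quasi-likelihood, default filter on low counts, 15114 genes, Benjamini-Hochberg threshold 0.05). A 95% interval is unadjusted and comes from that fit, its SE being the log2 fold change divided by the square root of F. Values by tumor are CPM, or log2(CPM + 0.5) where stated. Alternatives were no filter, a filter of 1 CPM in 3 tumors, scaling by library size only or by the upper quartile, DESeq2 1.42.0, voom in limma 3.58.1, a replicate block, and omission of each tumor. Scripts were tested on simulated data.

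The genes, lists and rules were chosen with earlier results of these data known. Named genes were the 8 genes, the 4 genes of smallest p in each of the 6 pathway lists and every gene past the threshold, with Insig2, Scap, Scd2 and Ch25h in any case, and some genes that the rule names are not reported here. From marker lists the 2 most abundant genes could be named, and the 3 genes of nearest profile were given for the 2 most variable of the 8 genes. Msmo1, Stard4, Abca1, Mylip, Cdx2 and Rai1 were added after their values were seen. Gene positions and exon lengths are those of GENCODE vM21 (GRCm38), in which 99.4% of identifiers were found, and promoters are those of RefSeq (GRCm38.p6). The labels do not say that tumors of a group came from separate mice. The study methods place the CT26.WT injection at the upper right of the back, but do not say which tumors were sequenced. The p-values weigh each group difference against the spread between these samples. Same-numbered tumors were not paired: their deviations from the group means correlated at -0.205, -0.0135 and -0.214.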

Additional observations from a re-analysis of the deposited data

How the results depend on the processing

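Over the alternatives to the edgeR fit, none of the 8 genes passed the threshold (104 comparisons, smallest adjusted p = 0.529, largest log2 fold change in size 0.303), and 94 kept their direction. Hmgcs1, at 0.035 with all tumors, was -0.000356 with library size only, -0.00323 with limma-voom and -0.00111 with the replicate block. With 1 tumor left out, log2 fold changes ran from -0.174 to -0.00347 for Srebf1, -0.122 to -0.0276 for Srebf2, -0.178 to 0.231 for Hmgcs1, -0.0395 to 0.303 for Sqle, -0.192 to -0.0309 for Insig1, -0.159 to -0.0352 for Fasn, -0.0488 to 0.0945 for Scd1 and -0.0714 to 0.0747 for Acaca. Direction turned for Hmgcs1 (-0.178), Sqle (-0.0395), Scd1 (-0.0288) and Acaca (0.00219) without IFN-γ tumor 3, for Hmgcs1 without control tumor 1 (-0.00934), for Scd1 without control tumor 3 (-0.0488) and for Acaca without control tumor 2 (0.0747).

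Over all genes, 12 higher and 5 lower calls became 121 and 67 with DESeq2, 150 and 70 without the filter, 5 and 2 with the replicate block, 7 higher with library size only and 3 lower with limma-voom. With 1 tumor left out they ran from 4 to 381 higher and from 2 to 112 lower, the most without IFN-γ tumor 3. The fatty acid list had 1 higher and 1 lower call with DESeq2 and also without the filter, and the LXR list 1 higher with DESeq2. With 1 tumor left out, the LXR and oxysterol lists each had 0 to 2 higher calls, with 2 in each without IFN-γ tumor 3. The replicate block changed no call in the 8 genes or the pathway lists. The causes were not tested. The tumors share only a number across groups. With 3 tumors a group, shifts inside the printed intervals were not excluded, and larger ones can also miss the adjusted threshold.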
